A study of Caenorhabditis elegans with 12 samples.

Results

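The genes described here encode the enzymes that activate fatty acids and break them down in the nematode Caenorhabditis elegans. They were taken by symbol from the count table of the y54g2a.18 experiment: every gene named acs, cpt, acdh, acox, ech, hacd or maoc with a number, except acdh-1 and ech-6, that had at least 10 counts summed over the 6 libraries. Of 46891 gene names in the table, 60 matched and 52 passed the minimum: 22 acs, 9 acdh, 7 ech, 6 acox and 6 cpt genes, hacd-1 and maoc-1. The study, on ageing, asked which transcripts change in whole N2 worms, the wild-type laboratory strain, when y54g2a.18, the worm homologue of BCAP31, is silenced by RNA interference (RNAi). Polyadenylated RNA from 3 libraries of worms given y54g2a.18 RNAi was compared with RNA from 3 libraries given a control RNAi. All 6 libraries came from N2 worms with no other allele named. The sources used here do not give the worms' age and stage or the content of the control RNAi. Nothing in the labels ties the libraries to separate cultures: the p-values then measure only their spread, which may be technical.

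A fatty acid must be joined to coenzyme A by an acyl-CoA synthetase (acs) before it can be oxidised, stored or built into membranes. Long acyl chains then enter mitochondria through the carnitine shuttle, in which the carnitine palmitoyltransferases (cpt) move the chain to carnitine and back. Each turn of beta-oxidation runs through a dehydrogenation, a hydration, a second oxidation and a cleavage. The first step is carried out by acyl-CoA dehydrogenases (acdh) in mitochondria and by acyl-CoA oxidases (acox) in peroxisomes. The second is carried out by enoyl-CoA hydratases (such as maoc-1), after which the ech genes are named. The third is carried out by 3-hydroxyacyl-CoA dehydrogenases (hacd-1). Thiolases cleave the chain. In worms the intestine and hypodermis are the main sites of fat storage and use, and the peroxisomal enzymes also shorten the side chains of ascaroside pheromones.

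Each library held 30096438 to 39482828 counts. Expression is given as CPM, the count as a share of a library's total, with totals scaled by trimmed means (TMM), and changes are log2 fold changes of RNAi over control with their standard error (SE) from a model fitted across all genes. The targeted gene, Y54G2A.18, was at 391, 358 and 409 CPM in control libraries 1 to 3 and at 190.1, 128 and 90.2 CPM in RNAi libraries 1 to 3. It fell by 1.51 on the log2 scale (SE 0.25, adjusted p = 0.00732, edgeR quasi-likelihood test), so the labels and the target's level point the same way. The first principal component, with 53.7% of the variance of log CPM, separated the groups, and the RNAi libraries correlated less with each other (0.965 to 0.974) than the controls did (0.986 to 0.990).

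A missing count says little about a gene in this table. Of protein-coding genes with 1 RefSeq transcript, 6.9% were listed at 0 in all 6 libraries, against 47.2% of those with 2 or more. The ribosomal protein gene rpl-3, which every cell uses, has 2 transcripts and was listed at 0 throughout. Among the matching symbols, all 42 genes with 1 transcript reached the minimum, while 8 of 16 genes with more transcripts did not. Of those 8, acs-19, acs-24, acdh-2, acdh-4, acdh-12, acox-1.1 and ech-2 were listed at 0. The other, ech-1.2, an alpha subunit of the mitochondrial trifunctional protein by homology, lay just outside the minimum with 4 counts in all. The member just inside it was acdh-11, a dehydrogenase linked to heat adaptation, with 10 counts. Together with acs-1, which activates branched-chain fatty acids, acs-17, acs-22 and ech-9, it was too low to test, and all 5 untested members have 2 or more transcripts. Values for acs-13, cpt-2 and ech-3, tested members with several transcripts, may hold only part of their reads.

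Of the 47 tested members, 1 changed: acdh-6 was lower after y54g2a.18 RNAi, and no member was higher. That is 2.13% of the tested members, against 8.98% of all 14290 tested genes (1283 called at an adjusted p under 0.05, edgeR). By direction, 3.97% of all genes were called higher and 5.01% lower. The share called over all genes depended on the libraries: 646, 664 and 667 genes were called without control library 1, 2 or 3, and 2097 without RNAi library 1. It also depended on the tool: DESeq2 called 1772 of the 14290 genes and limma-voom 1219. At an unadjusted p under 0.05 stood 14 members (29.8%), 8 higher and 6 lower, against 23.3% of all genes, 12.4% higher and 10.9% lower. The median log2 fold change was 0.14 over the members and 0.02 over all genes. The 95% interval of the change lay within 2-fold in either direction for 35 of the 47. For the other 12, a change of 2-fold or more was within the interval.

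**Figure D1:**
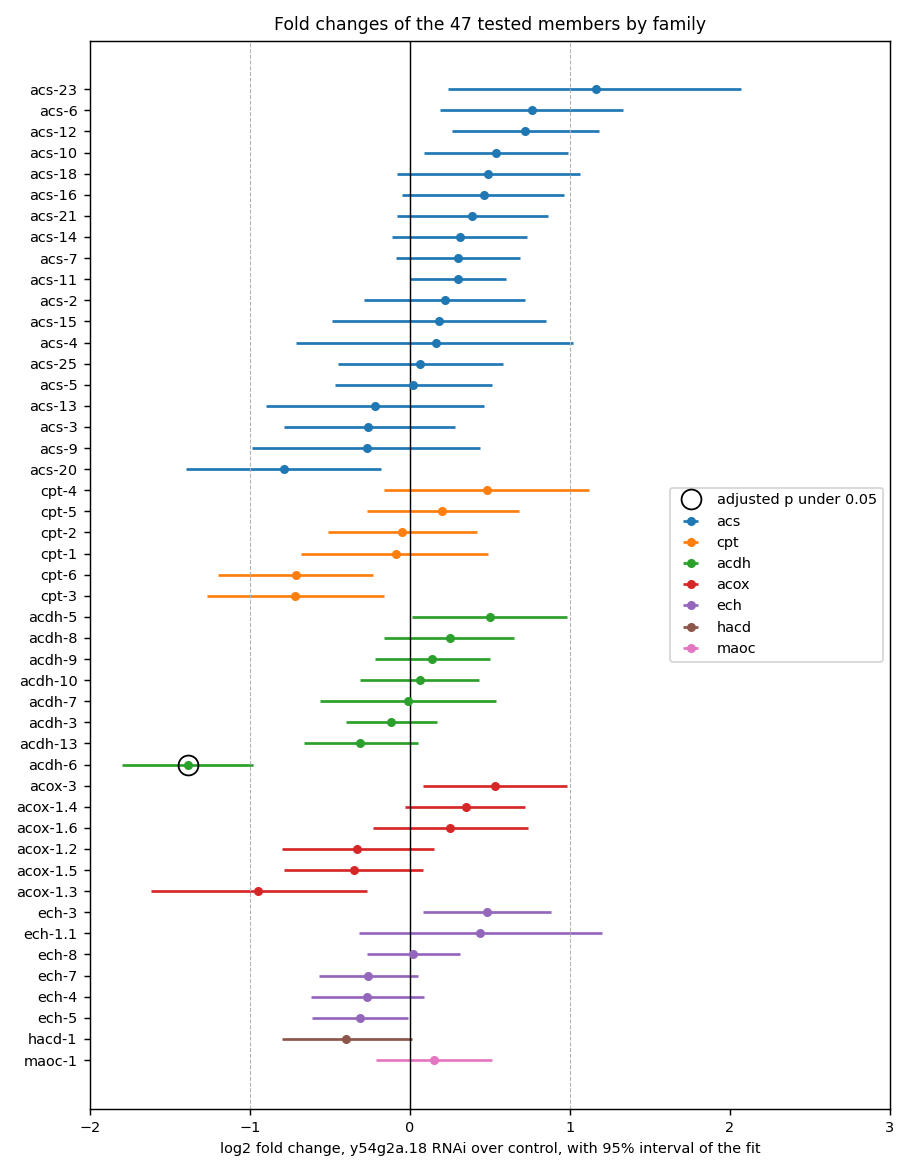
Log2 fold change of each of the 47 tested members (points) with its 95% interval from the edgeR fit (bars), by gene family in colour; dashed lines mark 2-fold. The circled gene, acdh-6 at -1.39, is the one called, and 15 of the 19 acs genes lie above 0.

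The called member, acdh-6, encodes an acyl-CoA dehydrogenase. It was at 25.8, 22.7 and 24.9 CPM in control libraries 1 to 3 and at 10.6, 7.93 and 9.52 CPM in RNAi libraries 1 to 3. All RNAi libraries lay below all controls, by a wide margin against the spread inside either group. The means were 24.5 ± 1.60 and 9.36 ± 1.36 CPM (SD, n = 3 each), 2.62-fold lower after RNAi. The log2 fold change was -1.39 (SE 0.18, 95% interval -1.80 to -0.98, adjusted p = 0.00234, edgeR). It was called under each of the 14 alternative settings tried, including without each library in turn, with a log2 fold change between -1.49 and -1.28 and an adjusted p of at most 0.0202. By RefSeq it has 1 transcript, and in the Ensembl annotation its exons overlap no other gene.

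**Figure D2:**
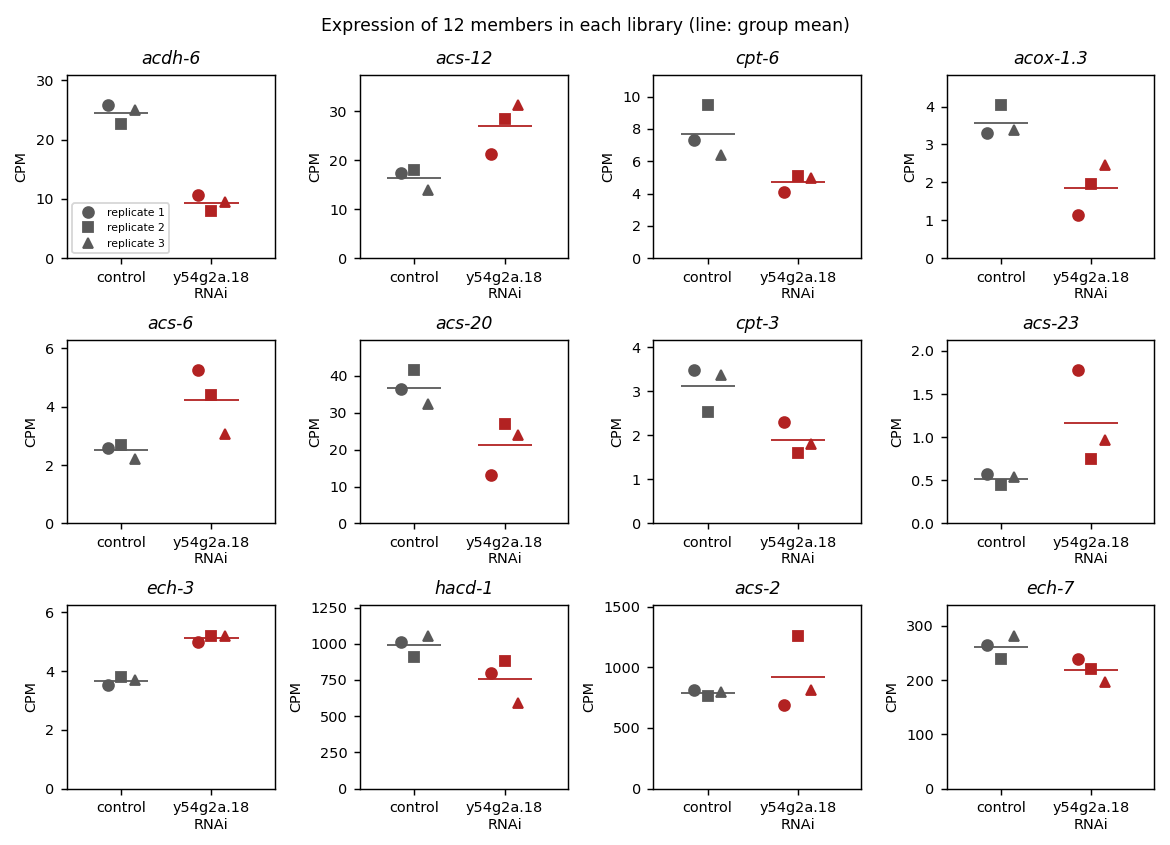
CPM in each library of the 9 tested members with the smallest p and the 3 others with the highest mean CPM, controls in grey and y54g2a.18 RNAi in red, with the group mean as a line and the replicate number as the symbol. The groups are far apart for acdh-6 (24.5 against 9.36 CPM on average), while acs-2 is high in RNAi library 2 alone, at 1261 CPM.

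Levels can be compared between genes only per length, and that was done for the 41 members with 1 RefSeq transcript and an annotated exon length, in CPM per kilobase (kb) of exon. In the controls they spanned a 2470-fold range. The highest level was that of hacd-1, at 972 ± 74.1 CPM per kb (SD, n = 3), followed by acs-2 at 380.3 ± 10.8 and ech-7 at 338 ± 27.6. Next came acdh-3 at 137 ± 4.96, acs-11 at 127 ± 3.63 and maoc-1 at 127 ± 8.29 CPM per kb. The range of 1 SD of maoc-1 meets those of acdh-3 and acs-11. The medium-chain type dehydrogenase acdh-10 and the gene ech-4 followed at 95.5 ± 6.32 and 95.3 ± 7.39 CPM per kb, less apart than their spread. The called acdh-6 was of middle rank, at 18.4 ± 1.21 CPM per kb. The lowest was acs-15, at 0.394 ± 0.0279 CPM per kb.

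**Figure D3:**
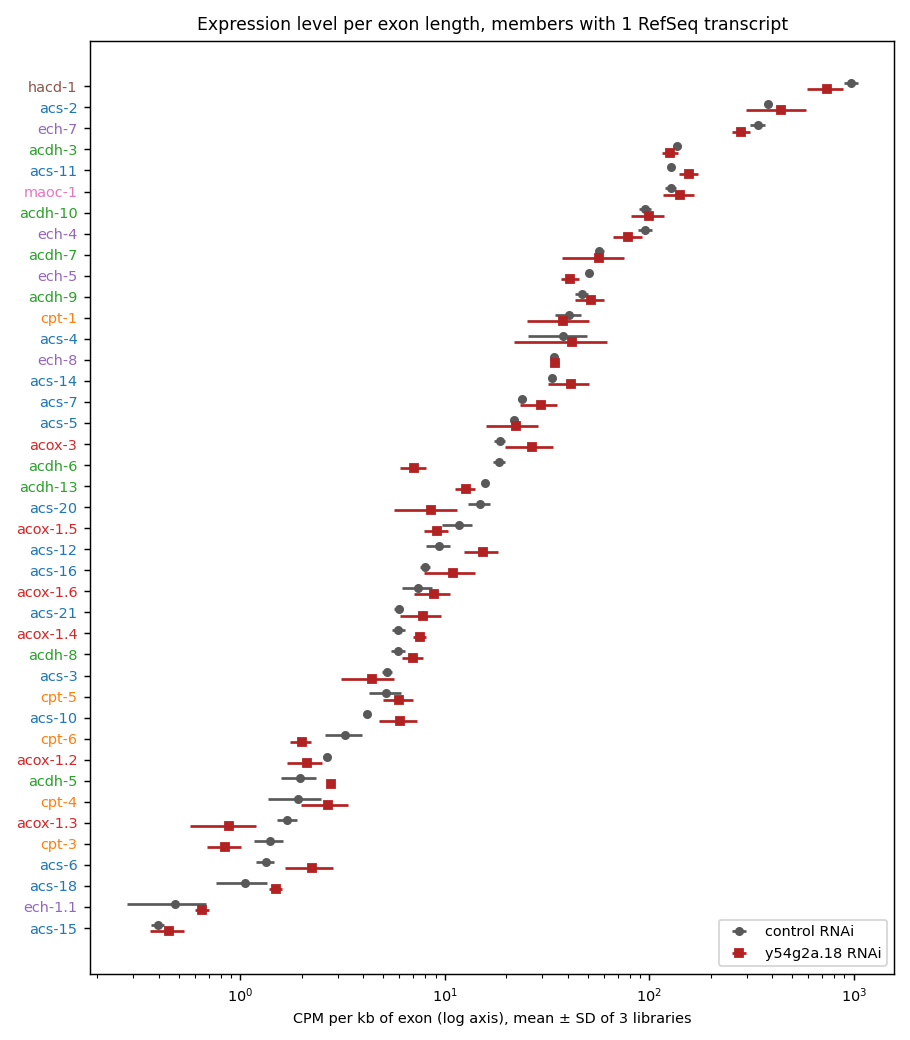
Mean level of 41 members in CPM per kb of exon, on a log axis, with the SD of 3 libraries as bars, controls in grey and RNAi in red. The order runs from hacd-1 at 972 CPM per kb in the controls down to acs-15 at 0.394, and acdh-6 is displaced to the left after RNAi.

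Activation is the step with the most members. Of 19 tested acs genes, none was called in either direction by edgeR, with 6 at an unadjusted p under 0.05. DESeq2 called acs-12 higher and acs-20 lower, and limma-voom called 0. Among all tested genes, 8.98% were called and 23.3% had an unadjusted p under 0.05 (edgeR). The log2 fold change was above 0 for 15 of the 19, against 7420 of 14290 genes, with a median of 0.30. All RNAi libraries lay above all controls for 8 acs genes and below them for 1, where 15.8% of all genes lay above and 14.6% below. With total counts in place of scaled counts, those numbers were 5 and 1, where 2419 of all 14290 genes lay above and 2025 below. The number above 0 and the median depended on which libraries were kept. Without RNAi library 2, 12 of 20 tested acs genes were above 0 and their median was 0.16. Without control library 3 it was 13 of 20 (median 0.25), and without RNAi library 3 it was 13 of 19 (median 0.27). Without RNAi library 1 it was 17 of 20 (median 0.39). Summed over the family, the controls held 1396, 1389.8 and 1328 CPM and the RNAi libraries 1201, 1996 and 1581 CPM. The RNAi libraries thus lay on both sides of the controls. The intestinal marker genes summed to 4118, 3946 and 4152 CPM in control libraries and to 4043, 5805 and 4675 CPM in the RNAi libraries. This sum was also highest in RNAi library 2, where asp-1 alone gave 3902 CPM. Among the RNAi libraries, asp-1, act-5, ges-1, elt-2 and vha-6 were highest in library 2. By contrast, elt-7, pept-1, cpr-6, nhx-2 and spl-1 were highest in library 3. The part of the intestinal markers in the acs values was not tested. In bulk RNA, fewer cells of a type and less RNA per cell cannot be told apart.

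The most abundant acs gene was acs-2, a mitochondrial acyl-CoA synthetase induced by fasting through the nuclear receptor NHR-49. It was at 810.4, 767 and 799 CPM in control libraries and at 690.3, 1261 and 811 CPM after RNAi. RNAi library 2 stood high, library 1 lay below the controls and library 3 just above them, so the groups overlapped. The ratio of RNAi to control had a 95% interval of 0.819 to 1.65 (adjusted p = 0.614, edgeR). The second in abundance, acs-11, was at 217, 212 and 205 CPM in control libraries and at 229, 281 and 273 CPM after RNAi. Its groups did not overlap, and the difference of 0.30 (log2, SE 0.13) had an adjusted p of 0.212 (edgeR).

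The acs gene nearest to the threshold was acs-12, at 17.4, 18.0 and 13.9 CPM in control libraries and 21.3, 28.4 and 31.2 CPM after RNAi. Its RNAi libraries were all above its controls, with means of 16.4 ± 2.21 and 26.99 ± 5.10 CPM (SD, n = 3 each). The log2 fold change of 0.72 (SE 0.20) had an adjusted p of 0.0658 (edgeR), which ranged from 0.0153 to 0.251 over the alternatives. It was called with upper-quartile factors, with DESeq2 and without RNAi library 1. The opposite order was seen for acs-20, a homologue of the fatty acid transport proteins that takes part in the worm's surface barrier. It was at 36.5, 41.4 and 32.3 CPM in control libraries and at 13.1, 26.8 and 23.8 CPM after RNAi, with RNAi library 1 the lowest. Its log2 fold change was -0.79 (SE 0.26, adjusted p = 0.112, edgeR).

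The largest fitted difference of the family was that of acs-23, which RefSeq annotates as a pseudogene. It had 0.571, 0.449 and 0.540 CPM in control libraries and 1.78, 0.745 and 0.965 CPM after RNAi. RNAi library 1 stood well above the rest, and the difference of 1.16 (log2, SE 0.40) had an adjusted p of 0.121 (edgeR). The groups were also apart for acs-6, with control libraries at 2.59, 2.69 and 2.22 CPM and RNAi libraries at 5.24, 4.41 and 3.05 CPM (adjusted p = 0.104, edgeR; 0.0422 without RNAi library 3). They were apart as well for acs-10, acs-16, acs-18 and acs-7, the last an enzyme of ascaroside synthesis, with log2 fold changes of 0.54, 0.46, 0.49 and 0.30. For acs-4, a long-chain acyl-CoA synthetase homologue, the libraries of each group were widely spread. It was at 102, 143 and 74.9 CPM in control libraries and at 57.6, 128 and 172 CPM after RNAi, and its interval of 0.612 to 2.03 for the ratio allows a change in either direction. The other acs genes, acs-3, acs-5, acs-9, acs-13, acs-14, acs-15, acs-21 and acs-25, had overlapping groups and log2 fold changes from -0.27 (acs-9) to 0.39 (acs-21). Of these, acs-14, at 57.9, 55.2 and 54.7 CPM against 52.5, 71.0 and 84.5 CPM, was called higher without RNAi library 1 (adjusted p = 0.0463, edgeR).

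**Figure D4:**
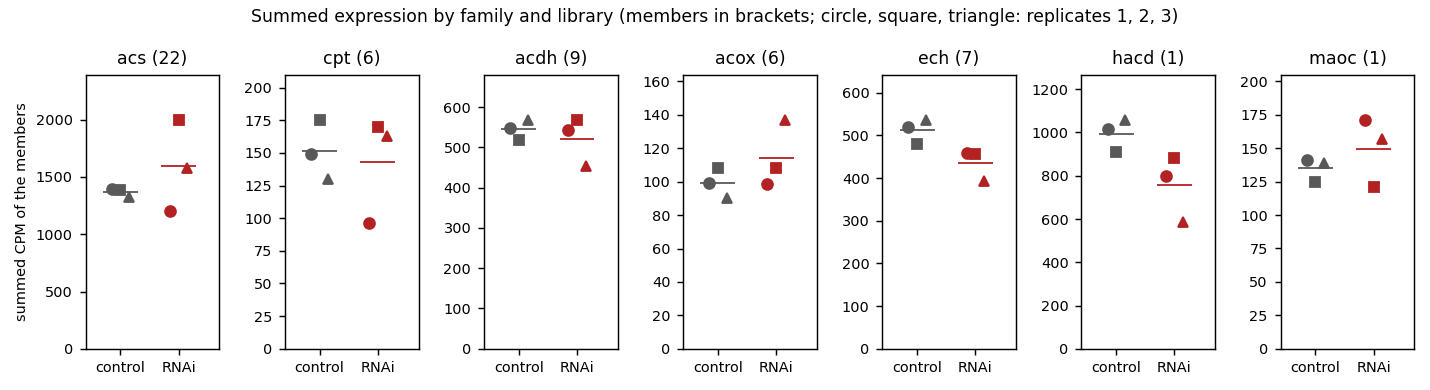
Summed CPM of the members of each family in each library (circle, square and triangle for replicates 1, 2 and 3), with the group mean as a line and the number of members in brackets. For acs the RNAi libraries span 1201 to 1996 CPM around controls at 1328 to 1396, and for ech and hacd they lie below the controls.

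In the carnitine shuttle, none of the 6 tested cpt genes was called by edgeR (2 at an unadjusted p under 0.05, cpt-6 called by DESeq2, 0 by limma-voom). With 8.98% of all genes called and 23.3% at an unadjusted p under 0.05 (edgeR), so few genes cannot set the family apart. The outer membrane enzyme of the shuttle, cpt-1, was the most abundant, at 114.3, 130.1 and 97.0 CPM in control libraries and 65.4, 131 and 123 CPM after RNAi. RNAi library 1 stood low and the other RNAi libraries lay within or just above the controls (log2 fold change -0.09, SE 0.25, adjusted p = 0.868, edgeR). The inner membrane enzyme, cpt-2, gave a ratio of RNAi to control with a 95% interval of 0.702 to 1.34. The next most abundant, cpt-5, was at 11.8 ± 2.06 and 13.6 ± 2.27 CPM (SD, n = 3 each), and its groups overlapped.

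Among the scarcer cpt genes the RNAi libraries lay below all controls for cpt-3 and cpt-6. The values of cpt-6 were 7.32, 9.47 and 6.36 CPM in control libraries and 4.07, 5.08 and 4.98 CPM after RNAi (log2 fold change -0.71, SE 0.21, adjusted p = 0.0795, edgeR). Those of cpt-3 were 3.48, 2.54 and 3.36 CPM against 2.29, 1.60 and 1.81 CPM (log2 fold change -0.72, SE 0.24, adjusted p = 0.116, edgeR). Neither passed the threshold, and cpt-4 had the opposite sign, at 0.48 (SE 0.28).

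Among the acyl-CoA dehydrogenases, acdh-6 was the one called of 8 tested, where 8.98% of all genes were called (edgeR). The median of the family was 0.03. The most abundant, acdh-3, was at 204, 201 and 215 CPM in control libraries and 209.6, 177 and 185 CPM after RNAi, with overlapping groups (adjusted p = 0.632, edgeR). Its exons overlap genes on the opposite strand, and the sources used here do not say whether reads were assigned by strand. In all, 14 members have exons that overlap another gene. Among the tested ones the same limit holds for acs-7, acs-9, acox-1.4, ech-1.1, ech-3, ech-4, ech-8 and maoc-1, whose partners are on the opposite strand. The partner of acs-13 is on the same strand, so strand would not separate their reads. The medium-chain type gene acdh-10 was at 136, 122 and 138 CPM against 139.7, 162 and 111 CPM, a ratio with an interval of 0.807 to 1.35. The adjacent gene acdh-7, of the same type, was at 76.2, 72.7 and 80.4 CPM against 84.1, 96.5 and 47.3 CPM. In both neighbours RNAi library 2 was the highest and RNAi library 3 the lowest of all 6 libraries.

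The uncalled dehydrogenases with the largest differences had opposite signs. acdh-5 was at 2.70, 2.34 and 3.42 CPM in control libraries and 4.04, 3.96 and 3.92 CPM after RNAi, all above the controls (log2 fold change 0.50, SE 0.21, adjusted p = 0.203, edgeR). acdh-13 was at 31.7, 32.0 and 30.8 CPM against 22.2, 27.6 and 26.6 CPM, all below them (log2 fold change -0.31, SE 0.15, adjusted p = 0.279, edgeR). The groups overlapped for acdh-8, of the medium-chain type, and for acdh-9, with log2 fold changes of 0.25 (SE 0.18) and 0.14 (SE 0.16). Of the dehydrogenase left out by the rule, acdh-1, which acts in the propionate shunt, the mean was 365 ± 24.7 CPM in control libraries and 175 ± 34.6 CPM after RNAi (log2 fold change -1.06, adjusted p = 0.00547, edgeR).

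The peroxisomal oxidases were not called (0 of 6 by edgeR, 2 at an unadjusted p under 0.05, acox-1.3 by DESeq2, 0 by limma-voom), and their median was -0.04. For all genes the shares were 8.98% called and 23.3% at an unadjusted p under 0.05 (edgeR). The most abundant, acox-3, was at 39.6, 39.6 and 35.3 CPM in control libraries and 44.3, 49.3 and 71.7 CPM after RNAi. All RNAi libraries were higher, RNAi library 3 most (log2 fold change 0.53, SE 0.20, adjusted p = 0.149, edgeR; 0.0461 without RNAi library 1). The next, acox-1.5, was at 22.6, 28.9 and 21.5 CPM against 18.5, 16.7 and 21.8 CPM, with overlapping groups (log2 fold change -0.35, SE 0.19, adjusted p = 0.312, edgeR).

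The genes acox-1.1 to acox-1.4 lie next to each other among the protein-coding genes of the Ensembl annotation. Their tested members differed in sign: RNAi was below the controls for acox-1.2 and acox-1.3 and above them for acox-1.4. The values of acox-1.3 were 3.29, 4.04 and 3.39 CPM in control libraries and 1.15, 1.97 and 2.46 CPM after RNAi (log2 fold change -0.95, SE 0.29, adjusted p = 0.0906, edgeR). For acox-1.2 the log2 fold change was -0.33 (SE 0.21) and for acox-1.4 it was 0.35 (SE 0.16). For acox-1.6 the groups overlapped, at 15.4 ± 2.58 and 18.4 ± 3.67 CPM (SD, n = 3 each). The sources used here do not say how reads shared by such related genes were counted, and the split between them is uncertain.

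Among the genes with the ech symbol, none of 6 tested was called by edgeR (2 at an unadjusted p under 0.05, 0 by DESeq2 or limma-voom). Of all genes, 8.98% were called and 23.3% had an unadjusted p under 0.05 (edgeR). The reaction of each ech product was not examined. The sum over the family was 520.4, 479 and 536 CPM in control libraries and 459.6, 456 and 392 CPM after RNAi. All RNAi sums were lower than all control sums. The most abundant, ech-7, was at 264, 239.7 and 282 CPM against 239, 220.0 and 196 CPM (log2 fold change -0.26, SE 0.14, adjusted p = 0.293, edgeR). The next, ech-4, was at 127, 110.1 and 125 CPM against 106, 113 and 81.8 CPM, with overlapping groups (adjusted p = 0.351, edgeR). The groups were apart for ech-5, from 74.4 ± 1.91 to 60.1 ± 6.11 CPM (SD, n = 3 each; adjusted p = 0.205, edgeR). The smallest difference of the family was that of ech-8, at 49.5 ± 2.10 and 50.1 ± 2.16 CPM, with an interval of 0.829 to 1.24 for the ratio.

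The reverse order was seen for ech-3, at 3.53, 3.81 and 3.69 CPM in control libraries and 4.998, 5.21 and 5.20 CPM after RNAi. Both groups were tight and did not overlap (log2 fold change 0.48, SE 0.17, adjusted p = 0.136, edgeR). For ech-1.1, a homologue of the trifunctional protein's alpha subunit, the control libraries were at 1.12, 1.74 and 0.750 CPM and the RNAi libraries at 1.58, 1.78 and 1.56 CPM, so that the controls spanned nearly all of the RNAi values (log2 fold change 0.44, SE 0.33, adjusted p = 0.479, edgeR). The peroxisomal hydratase maoc-1, which works with dhs-28 and daf-22 in ascaroside shortening, was at 141, 125 and 139 CPM against 171, 121 and 157 CPM. Its RNAi libraries lay on both sides of the controls (log2 fold change 0.15, SE 0.16, adjusted p = 0.635, edgeR). The hydratase left out by the rule, ech-6, was at 474 ± 44.1 CPM in control libraries and 350.5 ± 56.3 CPM after RNAi (SD, n = 3 each; adjusted p = 0.139, edgeR; 0.0389 without RNAi library 1).

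For the second oxidation, hacd-1 had the highest level per kb of the 41 members compared, in the controls and after RNAi (972 and 739 CPM per kb). In CPM it was at 1014, 909.5 and 1057 CPM in control libraries and 797, 881 and 588 CPM after RNAi. All RNAi libraries were below all controls, RNAi library 2 only slightly and library 3 clearly. The means were 993 ± 75.7 and 755 ± 151 CPM (SD, n = 3 each). The log2 fold change of -0.40 (SE 0.18, 95% interval -0.80 to 0.01) had an adjusted p of 0.225 (edgeR).

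The cleavage step and the other genes around the pathway were taken from lists of 62 genes, of which 61 were in the table and 42 were tested. Of these, acbp-3 was lower and none was higher, 2.38% of those tested, against 8.98% of all tested genes (edgeR). At an unadjusted p under 0.05 stood 3 higher and 2 lower (11.9%, against 23.3% of all genes, edgeR). DESeq2 and limma-voom each called acbp-3 and T02G5.4, a pseudogene in RefSeq from the thiolase list, lower and none higher. The acyl-CoA-binding protein gene acbp-3 was at 125, 129 and 141 CPM in control libraries and 85.2, 54.4 and 80.3 CPM after RNAi. All RNAi libraries lay below all controls (log2 fold change -0.84, SE 0.18, adjusted p = 0.0234, edgeR). The call was lost without control library 1, 2 or 3, at adjusted p of 0.087, 0.0814 and 0.105 (edgeR).

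None of the 5 tested entries of the thiolase list was called by edgeR, with T02G5.4 nearest (adjusted p = 0.0535). The peroxisomal daf-22 was at 226 ± 22.2 CPM in control libraries and 208 ± 19.7 CPM after RNAi, and kat-1 at 191 ± 9.56 and 185 ± 34.1 CPM (SD, n = 3 each). The ratios of RNAi to control had 95% intervals of 0.740 to 1.14 for daf-22 and 0.752 to 1.25 for kat-1. The interval for dhs-28, which precedes daf-22 in the peroxisomal cycle, was 0.868 to 1.30. Of 12 regulators of fat use, 8 were listed at 0, among them nhr-49 and mdt-15, which have 5 and 2 RefSeq transcripts, so their levels could not be read.

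Within a group, the median coefficient of variation of the members was 7.47% over the controls and 18.9% over the RNAi libraries, against 11.1% and 23.3% for all tested genes, with no test made of the difference. The RNAi libraries were ordered alike in many members: RNAi library 2 was the highest of the 3 for 26 of 47 members (55.3%, against 31.8% of all genes), and RNAi library 1 the lowest for 26 (55.3%, against 36.1%). Over all members the RNAi libraries summed to 3367, 4298 and 3472 CPM, and the controls to 3869, 3704 and 3847 CPM. The groups did not overlap for 22 of the 47 members, 12 with RNAi above and 10 with RNAi below. That is 46.8%, against 30.4% of all genes.

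**Figure D5:**
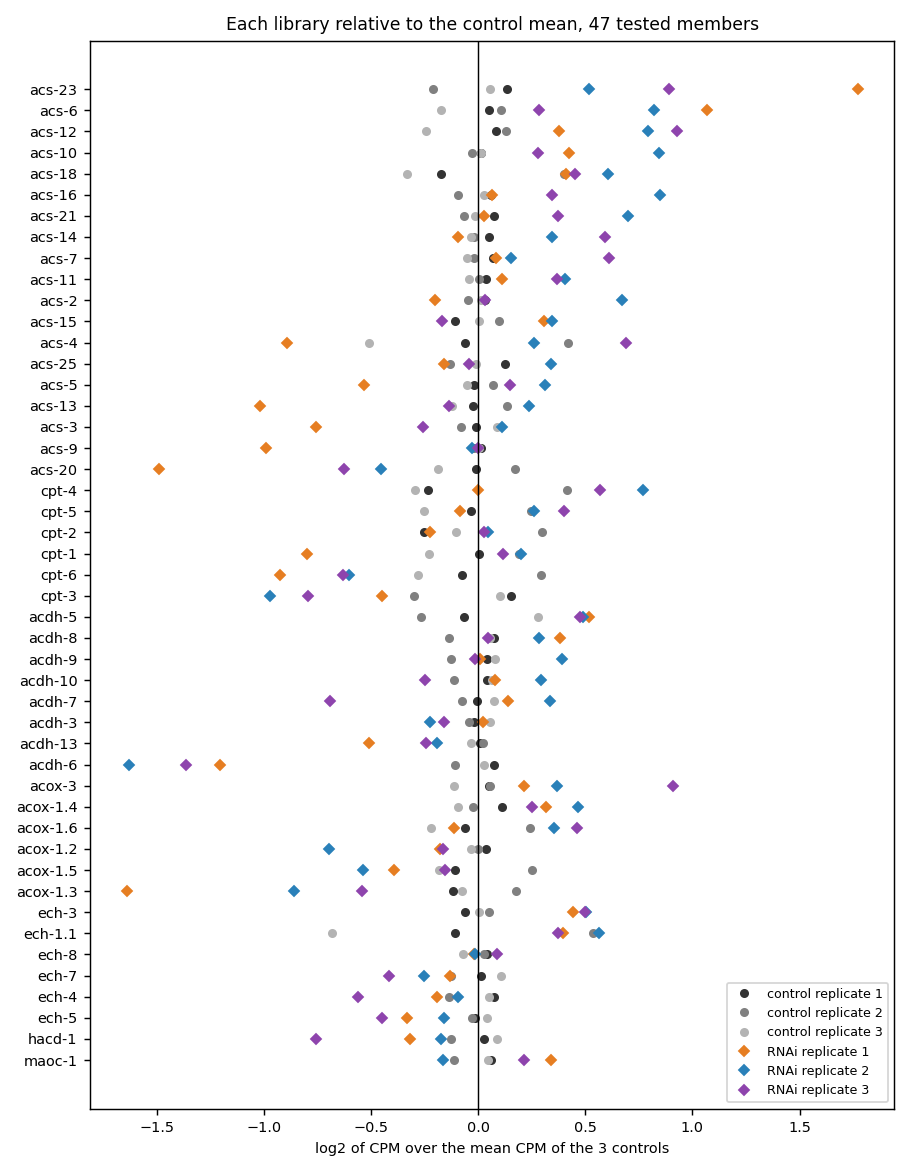
Log2 of the CPM of each library over the mean of the 3 controls, for the 47 tested members in the order of the fold changes; grey circles are controls and coloured diamonds RNAi libraries. The RNAi libraries are spread more widely than the controls, with RNAi library 2 the highest of the RNAi libraries for 26 members and RNAi library 1 the lowest for 26.

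Markers of other cell types were read beside these values. Of the 10 hypodermal markers, the 3 that were tested, the cuticle collagen genes dpy-7, rol-6 and dpy-13, were all lower. Their list summed to 1371 to 1656 CPM in control libraries and to 229 to 580.2 CPM after RNAi, while col-19, elt-1, lin-26, bli-1 and vha-7 were listed at 0. Of these, elt-1, lin-26 and vha-7 have 6, 4 and 3 RefSeq transcripts, but col-19 and bli-1 have 1 each. The part of the hypodermal markers in the values of acdh-6 was not tested. None of 10 tested intestinal markers was called (2 at an unadjusted p under 0.05, edgeR, and 0 by DESeq2 or limma-voom), and ifb-2 was listed at 0. The median log2 fold change of the 10 was 0.26. Their groups did not overlap for 5, 4 with RNAi above and 1 with RNAi below, where 30.4% of all genes did not overlap. None of 6 muscle, 6 neuronal or 9 germline markers was called either (1, 0 and 1 at an unadjusted p under 0.05, edgeR; 0 by DESeq2 or limma-voom), and of 7 sperm markers spe-12 was higher. Germline markers summed to 2239.8 to 2317 CPM in control libraries and to 1567 to 1979 CPM after RNAi. Body wall muscle markers summed to 1212 to 1365 CPM in control libraries and to 1494 to 2089 CPM after RNAi, and neuronal markers to 1144 to 1229 and 1219 to 1793 CPM. Sperm markers summed to 52.3 to 63.0 CPM in control libraries and to 62.0 to 109 CPM after RNAi. The germline and muscle sums did not overlap between the groups, while the neuronal and sperm sums did. Single genes weighed heavily: unc-27 gave 1132 of the mean muscle sum of 1743 CPM after RNAi. Likewise, cey-2 gave 1615 of the mean germline sum of 2272 CPM in controls. Gene by gene, the groups overlapped for 5 of 6 tested muscle and 7 of 9 germline markers, against 9945 of all 14290 genes. Over all genes, 8.98% were called and 23.3% had an unadjusted p under 0.05 (edgeR). The log2 fold changes were above 0 for all 6 muscle, 6 neuronal and 7 sperm markers tested and for 8 of 10 intestinal markers. They were below 0 for all 9 germline and 3 hypodermal markers tested. Among all genes, 7420 of 14290 were above 0.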

How the data were processed

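The authors deposited raw counts per gene, with no normalization, 1 column per library. The tools, whose roles are left unstated, were featureCounts 1.28.1, DESeq2 1.16.1, HISAT2 2.2.1 and FastQC 0.11.9, per the submitters' processing notes. Not given in the sources used here were the genome build, annotation, strand setting and the treatment of shared reads. Spellings of the targets vary in the labels (y54g21.18, rpoa-40) and were read as the series names them.

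Of 46903 entries, 12 named by dates were left out (at most 0.0247% of a library). Low genes were removed by filterByExpr (at least 10 counts, total 15), and the rest were scaled by TMM and tested with edgeR 4.0.16 in R 4.3.3 (quasi-likelihood, group only), with Benjamini-Hochberg adjustment over 14290 genes and calls at 0.05. SE is the absolute log2 fold change over the square root of F. Intervals are unadjusted. Totals after filtering dates were 30096438 to 39482828 counts. Of counts from 1 to 20, 71.5% were even. Replicates differed beyond sampling noise (chi-square per degree of freedom 24.2 to 182). The steps were tested on simulated data.

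RefSeq (WBcel235) gave names and transcript numbers for 51 members, and the Ensembl annotation neighbours and exon lengths for 50. No coordinates are given. Named genes were the target, called members, per family the 2 most abundant and the 2 uncalled with the largest change, the members at the count minimum and called pathway genes. Other genes, and those plotted by library, were chosen after their values were seen. Members and lists were chosen with earlier results of these data known. Alternatives were other scaling (DESeq2 size factors, total counts, upper quartile), no filter or 1 CPM in 3 libraries, DESeq2 1.42.0, limma-voom (limma 3.58.1), leaving out each library, and a replicate block. The 6 columns of the rpoa-49 experiment, whose table held 418 counts and 0 matching symbols, were not used.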

Additional observations from a re-analysis of the deposited data

How the results depend on the processing

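Over all genes, 646 to 2097 were called when 1 library was left out (646, 664 and 667 without control 1, 2 or 3, and 2097 without RNAi 1). Without RNAi 3 there were 1128. DESeq2 called 1772 of the 14290 genes and the fit with upper-quartile factors 1251, against 1283 in the main fit. The number of members called higher, 0, became 1 with upper-quartile factors (acs-12), 1 with DESeq2 (acs-12) and 0 to 3 when 1 library was left out (acox-3, acs-12 and acs-14 without RNAi 1, acs-6 without RNAi 3). The number called lower, 1, became 4 with DESeq2 (acdh-6, acox-1.3, acs-20, cpt-6) and was 1 whichever library was left out. Of 363 alternative values for 26 named genes, 355 kept direction and side of the threshold or stayed uncalled, 5 uncalled genes were called and acbp-3 lost its call 3 times. The 26 leave out acs-6, acs-12, acs-14 and T02G5.4, which were each called in at least 1 alternative. Over all tested members, 7 were called only in an alternative. The cause of these changes was not tested. The median over the members ran from -0.003 without RNAi 2 to 0.178 with upper-quartile factors, and that of members outside acs, -0.03, from -0.08 to 0.04. With the replicate number as a block, 955 genes were called, with 0 members higher and 1 lower. Same-numbered libraries did not deviate together (correlations 0.007, 0.045 and -0.365), and the main fit did not pair libraries by number. Between libraries of different numbers the correlations ran from -0.418 (control 2 with RNAi 1) to 0.403 (control 2 with RNAi 3). Control 3 with RNAi 1 gave 0.394. Some deviations were thus shared across the groups, and their cause was not tested. Ribosomal RNA genes held 1.03, 1.64 and 0.214% of the counts in control libraries 1 to 3. In RNAi libraries 1 to 3 they held 0.0937, 1.31 and 2.02%. The part of this in the deviations and in the order of the libraries was not tested. For 12 of 47 members the 95% interval reached 2-fold, 11 members outside the calls changed sign in an alternative, and 47.2% of genes with several transcripts are listed at 0.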
